A study of Rattus norvegicus with 12 samples.

Results

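Spinal cord neural stem cell cultures were compared between a differentiated and a proliferative state, with 3 arrays of each state. These 6 arrays, chosen by the sample titles (SNSC and SNSCfenhua, the second holding the Chinese word for differentiation), belong to a series of 12 in which the other 6 hold the same states of cultures from brain. All cultures came from Sprague Dawley rats aged postnatal day 3 to 5, the labels name no transgene, mutation or drug, and the agents and duration of differentiation are not given in the sources used here. The labels do not say whether the arrays of a state came from separate cultures or animals, so a p-value here reflects how far these arrays vary, and that variation may be technical.

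Neural stem cells of the postnatal spinal cord are commonly kept dividing with epidermal and fibroblast growth factors, whose receptors act through the kinase ERK, and form astrocytes, oligodendrocytes and neurons when these factors are withdrawn. A cord explant or dissociate can also bring cells of the meninges, fibroblast-like cells that are known to secrete fibrillar collagens, retinoic acid and the chemokine CXCL12. Interferon-induced genes, by contrast, answer to interferons through a short promoter element that is described beside their values.

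Levels are log2 signals of the deposited table, so a difference of 1 is a 2-fold change; the fold changes below are linear. A gene is represented by its probe set (a group of short probes on the array) with the highest mean, and higher or lower means an adjusted p under 0.05 in a limma fit over all 12 arrays. A gene is called dim in a state where all 3 arrays lie below their own 40th percentile of signal; folds from or to a dim state use the mean of those percentiles, 6.36 in proliferative and 6.26 in differentiated cultures, and are given as "at least". Where a state has a mean below that level but an array above its own percentile, the fold is measured, and the smaller fold with the mean set to the level, a setting added after the data were seen, stands beside it where it is over 1.5 times smaller. Array medians lay between 7.03 and 7.22. The difference between the 3' and 5' probe sets of Actb, a sign of RNA quality, was 0.99 to 1.01 on the differentiated arrays and 0.69 to 0.99 on the proliferative ones, and its part in the results was not tested. Pearson correlations over the 20834 tested probe sets were 0.963 to 0.968 between the differentiated arrays, 0.94 to 0.972 between the proliferative ones and 0.831 to 0.857 between states. In these bulk samples fewer cells of a type and less RNA per cell cannot be told apart.

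Of 20834 tested probe sets 8396 differed between the states (40.3%), 3806 of them higher after differentiation (18.3%) and 4590 lower (22.0%). Of 11218 tested genes, 2341 were higher in differentiated cultures (20.9%) and 2540 were lower (22.6%). The arrays of the 2 states did not overlap in 2923 genes upward (26.1%) and 3085 downward (27.5%). Separate arrays are thus common, and where they are described below they are to be read against these shares. At least 4-fold changes were found in 265 genes upward (2.36%) and 239 downward (2.13%), or 254 and 227 with every mean below the dim level set to it. The 15 genes of largest rise include genes for secreted matrix proteins, chemokines, a connexin and angiotensin receptors, and the 15 of largest fall include genes for a retinaldehyde-binding protein, a protease inhibitor, neuropeptides, granule proteins, the growth factor amphiregulin and the transcription factor Sox11. Over all tested genes the median log2 change was -0.04, the value against which the medians of gene lists below are set.

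**Figure D1:**
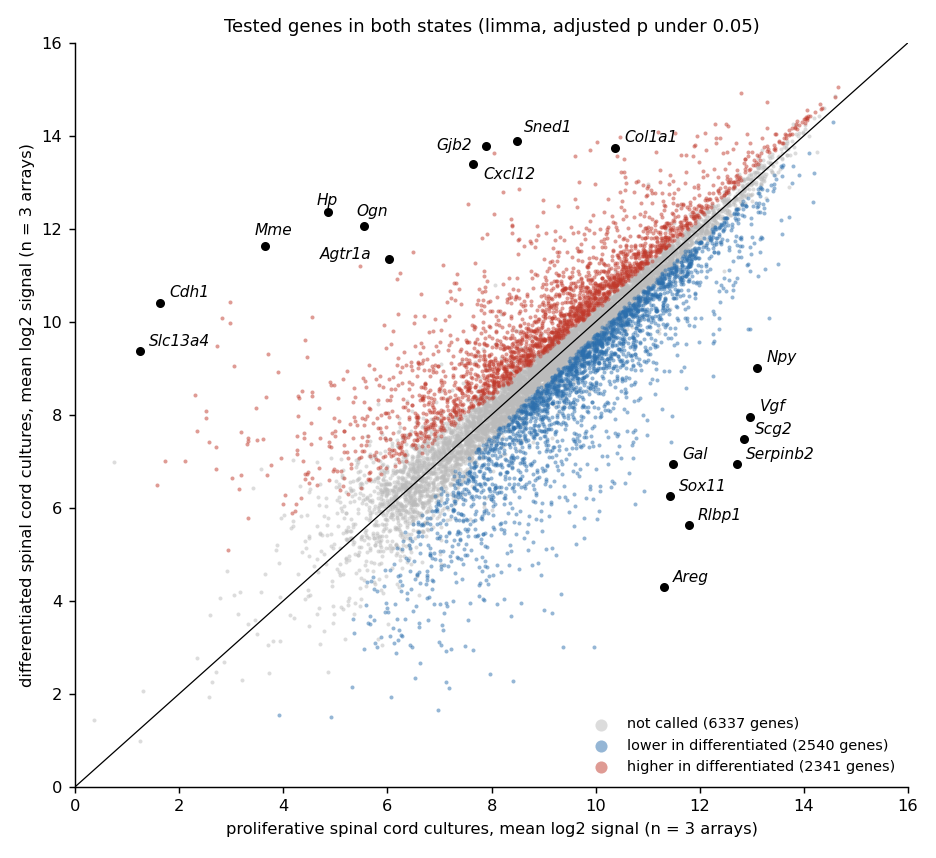
Mean log2 signal of the 3 differentiated arrays (vertical axis) against that of the 3 proliferative arrays (horizontal axis) for the 11218 tested genes, with a line of equal signal; red marks genes called higher (2341), blue genes called lower (2540) and grey genes not called, and 18 genes are labelled in black. Gjb2, Hp and Ogn lie far above the line, and Rlbp1, Scg2 and Areg far below it.

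The gene lists described below cover 55 functional groups and 11 sets of cell markers, with 1849 members of which 1367 were tested. Their counts are to be read against the shares of all tested genes, 20.9% higher and 22.6% lower. Lists with the largest shares of higher genes were fibroblast and meninges markers (12 of 14), interferon-induced genes (27 of 33), fatty acid oxidation (16 of 21) and ribosomal proteins (19 of 26, but 13 with median centring, 2 under quantile normalization and 8 without differentiated replicate 1). Oligodendrocyte precursor markers (8 of 10) and the receptors for glutamate, GABA and acetylcholine (15 of 20) had the largest shares of lower genes among lists of at least 10 tested members.

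**Figure D2:**
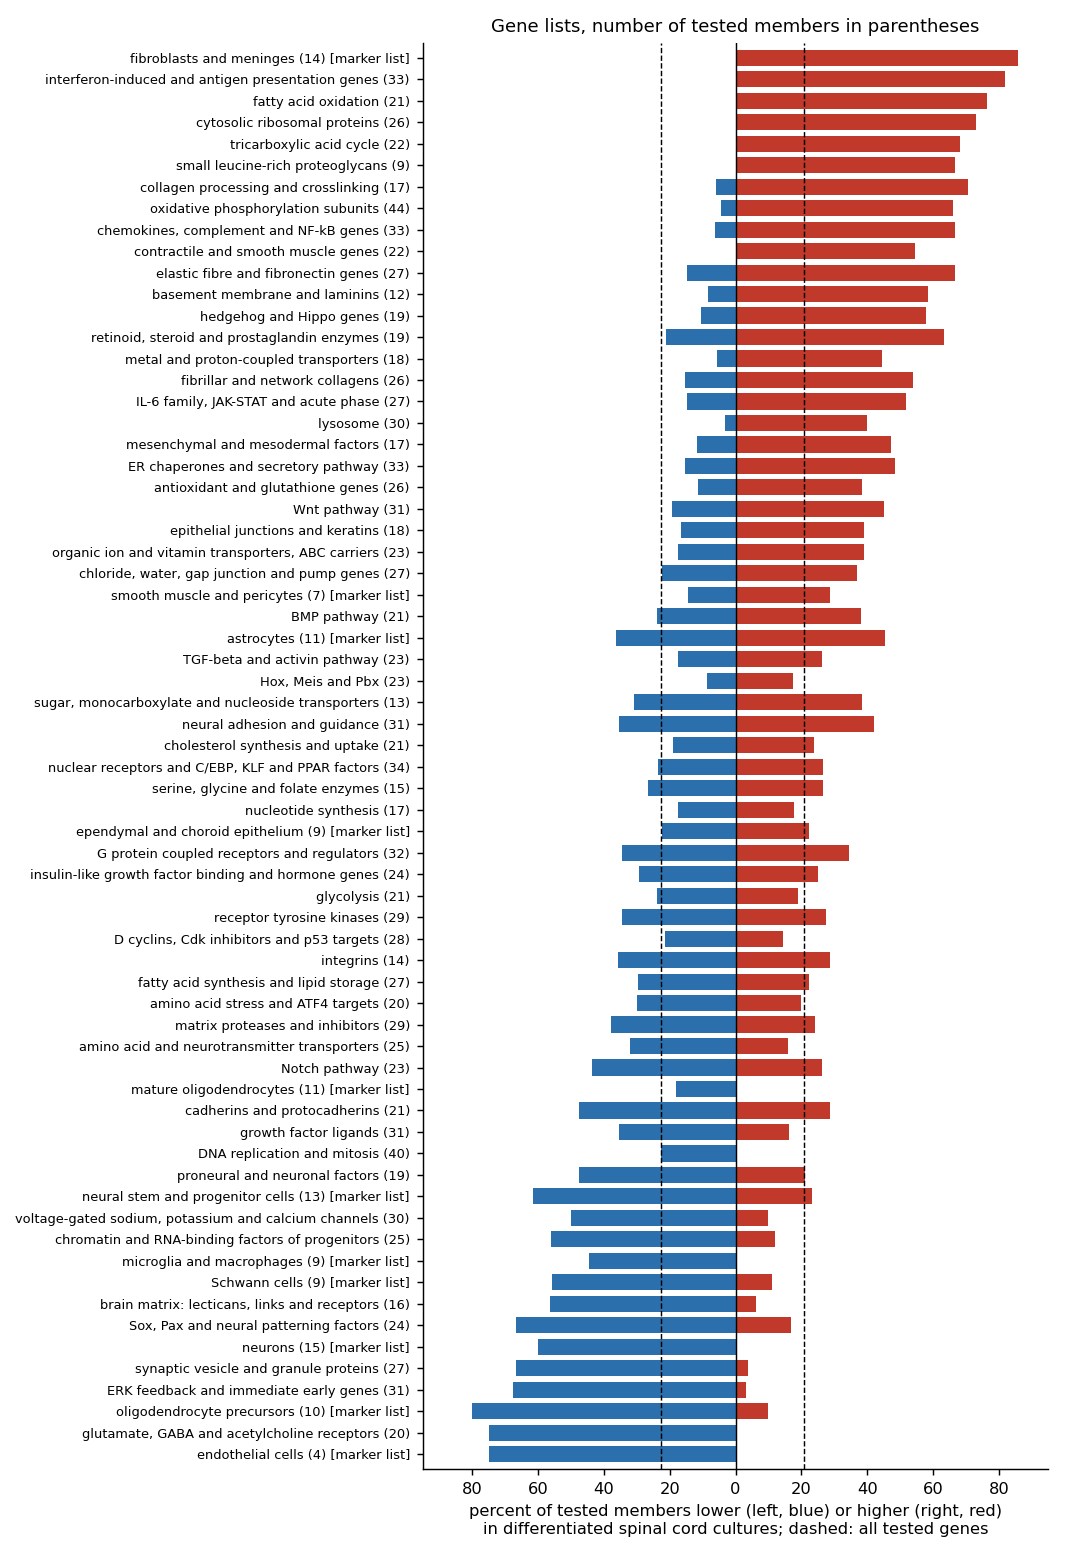
Share of tested members called higher (right) and lower (left) in differentiated spinal cord cultures, in percent, for each of the 66 gene lists; dashed lines mark the shares over all tested genes, 20.9% higher and 22.6% lower. Fibroblast and meninges markers lie at the top, with 85.7% higher, and endothelial markers (4 tested), transmitter receptors and oligodendrocyte precursor markers at the bottom.

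Hox genes, which hold the position of cells along the body axis and are silent in the forebrain, were read beside the tissue label. All 18 tested Hox genes were above the dim level in both spinal cord states, and 17 of them were dim in both states of the brain cultures. A gene was tested only with at least 3 of 12 arrays above their own 40th percentile. Those 17 could thus be tested only through spinal cord arrays, and their level there is partly set by this filter. The filter does not use the tissue labels. Hoxa5 read 11.2, 11.52 and 11.41 before and 12.03, 12.02 and 11.85 after differentiation, and Hoxc8 read 8.49, 9.03 and 9.39 before and 9.63, 9.73 and 9.82 after. Neither was called between states in the 12-array fit, although the arrays of neither overlapped; both were called higher with only the 6 spinal cord arrays (log2 0.59 and 0.76) and with a pseudocount of 64 (0.58 and 0.69).

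Markers gave a less simple picture of the state label. Of 13 tested markers of neural stem and progenitor cells, 8 were lower and 3 higher. Nes, an intermediate filament of progenitors, fell from 9.68, 9.34 and 9.15 to 7.78, 7.95 and 8.13 (2.72-fold, limma adjusted p = 1.74e-05), and Sox2, which maintains neural stem cells, fell from 12.78, 12.8 and 12.86 to 11.63, 11.53 and 11.73 (2.27-fold). Neither gene's arrays overlapped between states. Markers of neurons did not rise: 9 of 15 were lower and 0 higher in the limma fit, with 0 higher and 10 lower at an unadjusted p under 0.05. Dcx, a microtubule protein of young neurons, fell 12.2-fold, from 9.51, 9.85 and 10.08 to 6.22, 5.9 and 6.49.

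Oligodendrocyte precursor markers fell in 8 of 10 cases, with a median log2 change of -2.34. Cspg4, the NG2 proteoglycan, read 9.51, 10.14 and 10.03 on the proliferative arrays and 6.21, 6.67 and 6.49 on the differentiated ones, a 10.8-fold fall (limma adjusted p = 8.11e-08). Pcdh15, a protocadherin of these precursors, went from 8.51, 9.41 and 9.56 to 3.77, 2.99 and 4.48 and fell at least 7.45-fold. Pdgfra, the receptor for platelet-derived growth factor A, was the 1 member that rose, 1.65-fold. No mature oligodendrocyte marker was called higher and 2 of 11 were called lower, with 0 higher and 2 lower at an unadjusted p under 0.05; without any 1 of the 6 arrays, none was called. With arrays centred on their medians 0 were lower, and in a fit of only the 6 spinal cord arrays 1 was higher and 5 were lower.

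Astrocyte markers were divided, with 5 of 11 higher and 4 lower. Aqp4, the water channel of astrocyte endfeet, rose from 10.12, 11.05 and 10.5 to 12.85, 12.76 and 12.87 (4.82-fold, limma adjusted p = 7.89e-05). Gfap, the astrocyte intermediate filament, was 11.78, 13.28 and 13.34 on the proliferative arrays and 11.32, 11.34 and 11.52 on the differentiated ones, and was called lower (2.64-fold, limma adjusted p = 0.00307). The arrays did not overlap, but proliferative replicate 1 lay close to the differentiated ones. S100b, a calcium-binding protein of astrocytes, also fell (2.63-fold), while Aldh1l1, a folate enzyme that marks astrocytes, rose (2.46-fold).

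Fibroblast and meninges markers rose in 12 of 14 cases, with a median log2 change of 2.03, and 0 were lower (13 higher and 0 lower at an unadjusted p under 0.05). Their mean level was 8.27, 9.17 and 9.06 on the proliferative arrays, and 12 of the 14 were above the dim level there. Col1a1, a chain of type I collagen, rose from 9.55, 11.09 and 10.48 to 13.81, 13.74 and 13.68 (10.3-fold, limma adjusted p = 2.89e-06). Slc13a4, a sulfate transporter, went from 0.82, 1.59 and 1.34 to 9.46, 9.28 and 9.34, which is at least 8.02-fold. The forkhead factor Foxc1, needed for the formation of the meninges, rose at least 5.3-fold. Dcn, the proteoglycan decorin, stood at 13.28, 14.23 and 14.04 before and 14.37, 14.23 and 14.11 after differentiation and was not called.

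Other cell markers moved less or downward. Microglia and macrophage markers were lower in 4 of 9 cases and higher in 0 (1 higher and 4 lower at an unadjusted p under 0.05); without proliferative replicate 1 they were 3 lower and 2 higher. C1qa, a complement subunit made by microglia, fell from 10.09, 9.42 and 9.51 to 6.1, 7.37 and 6.56 (7.99-fold). Schwann cell markers were lower in 5 of 9 cases and higher in 1 (0 without proliferative replicate 2, 2 with only the 6 spinal cord arrays). Endothelial markers were lower in 3 of 4 cases, or 2 under quantile normalization or with only the 6 spinal cord arrays; 3 of the 4 were dim in differentiated cultures, and their median log2 change was -2.05, or -0.10 with dim states at their floor. The part that the cell mixture has in the gene changes described here was not tested.

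Proliferative replicate 1 stood apart from the other proliferative arrays. Its mean over the DNA replication and mitosis genes was 10.8, against 9.84 and 9.97, and over interferon-induced genes 8.38, against 9.41 and 9.41. Microglia markers were higher on it (9.44 against 8.26 and 8.57), and the genes for chemokines, complement and NF-kB lower (8.84 against 10.1 and 9.79). The 3 differentiated arrays differed less for each of these lists. Values without this array, or without another, are given beside the folds and counts that they move by over 1.5 times.

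**Figure D3:**
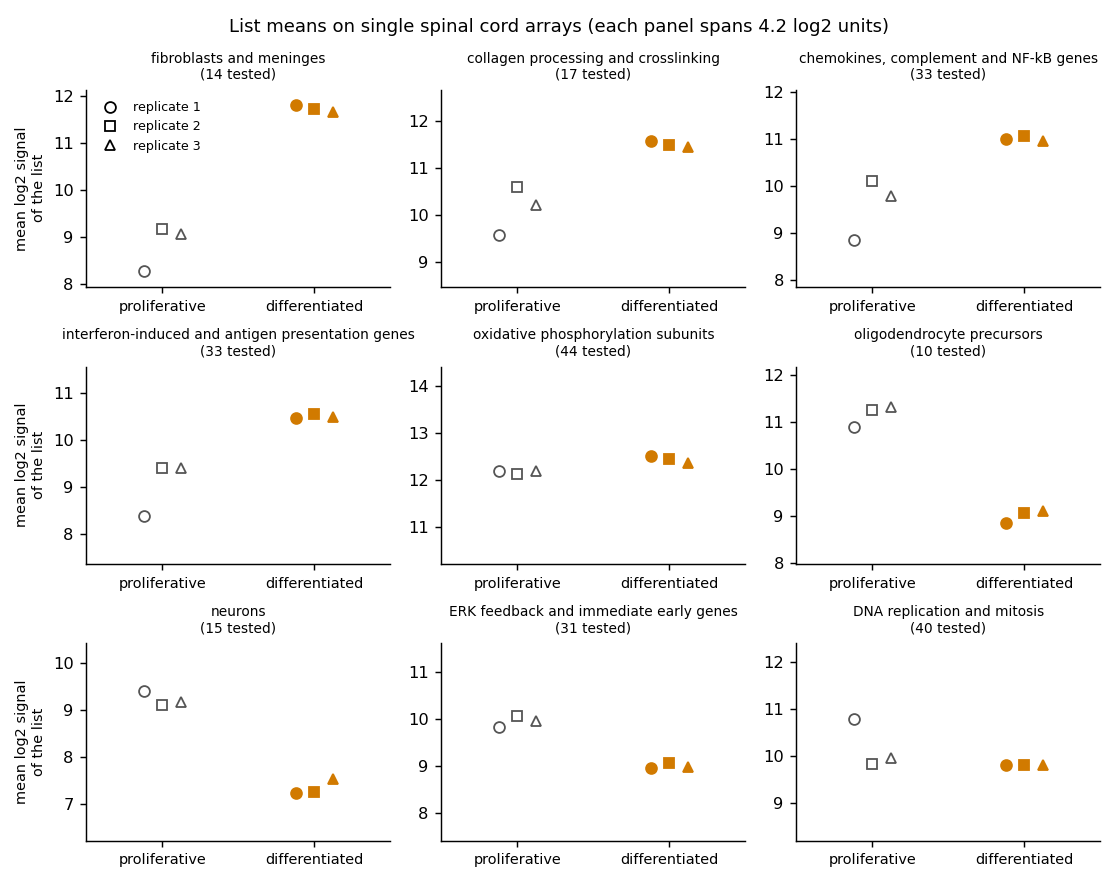
Mean log2 signal of the tested members of 9 gene lists on each of the 6 spinal cord arrays, open symbols for proliferative and filled ones for differentiated cultures, with a shape for each replicate; every panel spans the same 4.2 log2 units. Fibroblast and meninges markers lie higher on all 3 differentiated arrays, and DNA replication and mitosis genes are highest on proliferative replicate 1 (10.8).

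Ogn, which codes for the small proteoglycan osteoglycin, had the largest measured rise. It read 4.69, 5.25 and 6.68 on the proliferative arrays and 12.11, 12.06 and 11.97 on the differentiated ones, 91-fold higher (log2 change 6.51, SE 0.61, limma adjusted p = 2.44e-06). All 3 differentiated arrays lay far above the highest proliferative one. The proliferative mean was below the dim level, though, and set to that level it gave 51.6-fold, less than the rises of the next 3 genes. Hp, the hemoglobin-binding acute phase protein haptoglobin, went from 5.24, 3.73 and 5.58, a dim state, to 12.52, 12.44 and 12.12, at least 64.2-fold higher (limma adjusted p = 5.13e-08). Gjb2, the gap junction protein connexin 26, was readily measured in proliferative cultures at 8.55, 7.46 and 7.71 and reached 13.9, 13.75 and 13.69, 58.7-fold higher (limma adjusted p = 1.25e-08). The differentiated arrays lay within a narrow band in both genes.

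Secreted signals and their receptors followed. Cxcl12, a chemokine that guides precursor cells, rose 54-fold from 6.52, 8.23 and 8.17 to 13.57, 13.42 and 13.19 (limma adjusted p = 4.45e-08). Cxcl6, a neutrophil chemokine, rose 47.9-fold from 5.74, 9.61 and 8.79 to 13.72, 13.58 and 13.58; its proliferative arrays were wide apart, and the rise was 21.5-fold without proliferative replicate 1 and 82.2-fold without replicate 2. Agtr1a, the type 1 angiotensin receptor, rose 39.7-fold from 5.06, 6.62 and 6.39 to 11.36, 11.39 and 11.26, or 31.6-fold with its proliferative mean set to the dim level. Agtr2, the type 2 receptor, rose 31.9-fold from 7.59, 6.21 and 5.69 to 11.42, 11.49 and 11.58. In both angiotensin receptors every differentiated array was above every proliferative one.

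Among the other rises of this size, Mme, the peptidase neprilysin, increased at least 38.7-fold from a dim state. Sned1, a matrix protein, increased 42.6-fold, Plac8 31.9-fold, and Tnmd, the tendon protein tenomodulin, at least 28.6-fold. Tnnt2, the cardiac form of troponin T, rose from 5.84, 6.7 and 6.2 to 11.2, 10.73 and 11.18, 27.7-fold. Aox1, an aldehyde oxidase, rose 26.7-fold, and Ccdc80, a secreted matrix-associated protein, 23.6-fold. Ptgds, the prostaglandin D synthase found in the leptomeninges, rose 20-fold from 6.94, 9.15 and 9.48 to 12.93, 12.83 and 12.77, or 11.5-fold without proliferative replicate 1.

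Rlbp1, which codes for a retinaldehyde-binding protein, had the largest measured fall. It read 11.08, 12.02 and 12.25 on the proliferative arrays and 5.62, 6.41 and 4.86 on the differentiated ones, 71.3-fold lower (log2 change -6.16, SE 0.33, limma adjusted p = 2.09e-08). With its differentiated mean, which was below the dim level, set to that level the fall was 46.2-fold, less than that of Serpinb2 given below. Scg2, the granule protein secretogranin II, fell 41.6-fold from 12.95, 12.9 and 12.7 to 7.59, 7.48 and 7.35 (limma adjusted p = 3.44e-12). Sox11, a transcription factor of newborn neurons, fell 36.1-fold from 11.03, 11.51 and 11.73 to 5.91, 6.45 and 6.38 (limma adjusted p = 4.61e-10). No differentiated array of these 3 genes reached a proliferative one.

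Areg, the growth factor amphiregulin, fell at least 33-fold from 10.07, 12.22 and 11.63 to 4.27, 4.88 and 3.71 (at least 50.7-fold without proliferative replicate 1, which had the lowest of the proliferative readings). Serpinb2, an inhibitor of plasminogen activators, fell 55.1-fold from 11.3, 13.61 and 13.23 to 6.84, 6.74 and 7.2, or 90.1-fold without the same array. Several peptide genes fell together: Vgf, a granule peptide precursor, 32.2-fold, Calcb, a calcitonin gene-related peptide, 25.3-fold, Gal, galanin, 23.5-fold, and Npy, neuropeptide Y, 17-fold. Nxph1, a ligand of neurexins, fell 23.9-fold, and Car2, a carbonic anhydrase, 16.5-fold. Rnf180, a ubiquitin ligase, fell 16.5-fold, Cracd, an actin regulator, 14.9-fold, and Stmn3, a microtubule-destabilising stathmin, 14.5-fold. Bmerb1 fell 15.6-fold, 9.83-fold without differentiated replicate 1 or 9.99-fold with its differentiated mean set to the dim level.

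**Figure D4:**
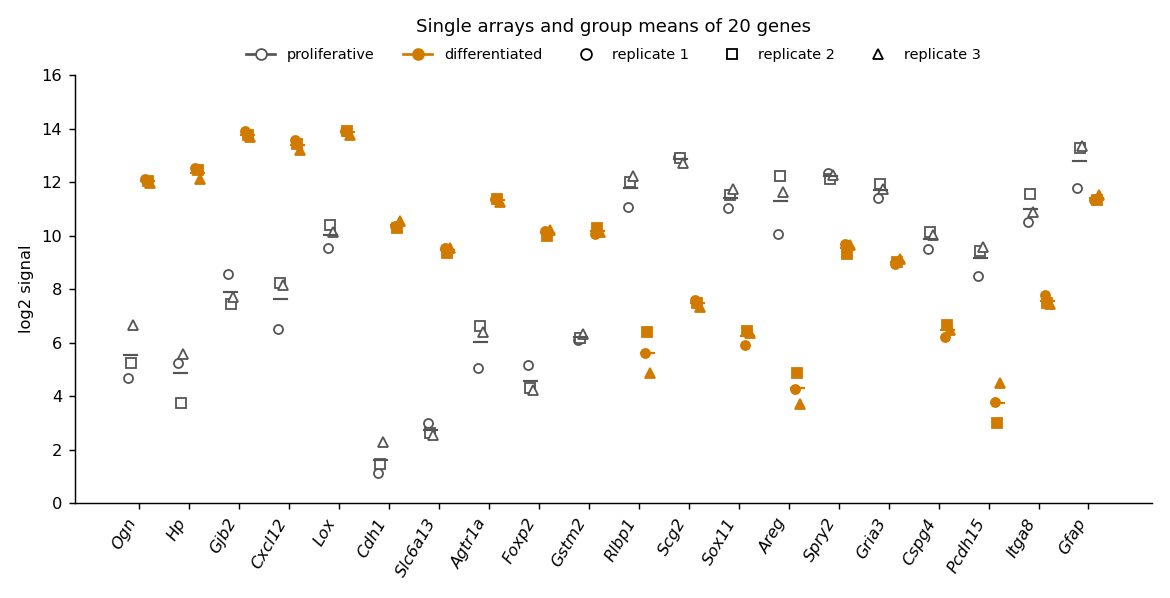
Log2 signal on each of the 6 spinal cord arrays (vertical axis) for 20 genes described in the text, open symbols for proliferative and filled ones for differentiated cultures; bars mark the mean of a state. Gjb2 rises to between 13.69 and 13.9 on the differentiated arrays, and Gfap is 11.78 on proliferative replicate 1, close to the differentiated arrays.

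Mitochondrial genes were higher, by small amounts. In fatty acid oxidation 16 of 21 genes rose and 0 fell (16 higher and 1 lower at an unadjusted p under 0.05 in limma), with a median log2 change of 0.66. Eci1, an isomerase for unsaturated fatty acids, rose from 9.37, 9.31 and 9.09 to 10.87, 10.93 and 10.62 (2.92-fold, limma adjusted p = 2.18e-06), and Acaa2, the mitochondrial thiolase, from 7.76, 8.42 and 8.13 to 9.63, 9.66 and 9.51 (2.82-fold). Both genes' differentiated arrays lay above all their proliferative ones. Cpt1a, which carries fatty acids toward the mitochondrial matrix, rose 2.37-fold, and Acadm, the medium-chain dehydrogenase, 1.84-fold. Without differentiated replicate 2, 1 member of the list was called lower.

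Of 22 tested tricarboxylic acid cycle genes, 15 rose and 0 fell (16 and 0 at an unadjusted p under 0.05), with a median of 0.38. Pck2, the mitochondrial enzyme that makes phosphoenolpyruvate, rose 3.25-fold from 7.79, 7.21 and 7.5 to 9.4, 9.39 and 8.81, with no overlap. Idh2, the mitochondrial isocitrate dehydrogenase, rose 1.95-fold, and Suclg2, a succinate-CoA ligase subunit, 2.17-fold. Cs, citrate synthase, had a log2 change of 0.01 and was not called. Counts for both lists stayed at 15 and 16 when arrays were centred on their medians and under quantile normalization.

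Subunits of oxidative phosphorylation were higher in 29 of 44 cases and lower in 2, with a median of 0.30, but only 16 were higher under quantile normalization (median 0.21), so the count depended on scaling. Without differentiated replicate 1 the counts were 21 and 1, and 1 was lower without any other array but proliferative replicate 1. The single changes were small: Ndufs1, of complex I, rose 1.28-fold, Cox4i1, of complex IV, 1.28-fold, and Atp5po, of the ATP synthase, 1.47-fold. Cox5a, also of complex IV, fell 1.32-fold. Uqcrc2, of complex III, was called higher by 1.2-fold on its brightest probe set, while another of its probe sets was called lower and the median over its probe sets was -0.25; the call was lost without proliferative replicate 2 (1.12-fold), differentiated replicate 1 (1.19-fold) or differentiated replicate 2 (1.2-fold).

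Glycolysis had no common direction, with 4 of 21 genes higher (19.0%) and 5 lower (23.8%), near the shares of all tested genes. The median was -0.01, and the counts were 5 and 3 with arrays centred on their medians. Pfkfb3, which makes the activator of phosphofructokinase, fell 3.26-fold from 10.47, 10.57 and 10.48 to 8.76, 8.62 and 9.02. Aldoc, the brain aldolase, fell 1.98-fold, whereas Gpi, the glucose phosphate isomerase, rose 1.57-fold and Pdk1, a kinase that restrains pyruvate dehydrogenase, 2.06-fold. Hk2 and Ldha, coding for a hexokinase and lactate dehydrogenase, had log2 changes of -0.13 and 0.22 and were not called, except Ldha with array quality weights (higher, 0.26).

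Counts for lipid and sterol synthesis lay near the shares of all tested genes, 20.9% higher and 22.6% lower. In fatty acid synthesis and storage the shares were 22.2% and 29.6%, and in the cholesterol list 23.8% and 19.0%. Of 27 genes of fatty acid synthesis and storage 6 rose and 8 fell, or 4 fell without differentiated replicate 2 or replicate 3, and 3 with arrays centred on their medians. Acaca, the acetyl-CoA carboxylase, fell 1.96-fold and Scd, the stearoyl-CoA desaturase, rose 3.07-fold. Plin3, a lipid droplet coat protein, rose 4.6-fold. Of 21 cholesterol genes 5 rose and 4 fell: Tm7sf2 and Ebp, enzymes late in sterol synthesis, rose 3.19-fold and 2.16-fold, Dhcr7, which also acts late in it, fell 1.67-fold, and Abca1, the cholesterol exporter, rose 2.78-fold. Apoe, the lipid carrier of the brain, had a log2 change of -0.04 and was not called.

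In amino acid metabolism the counts lay near the shares of all tested genes, 20.9% higher and 22.6% lower. Of 15 serine, glycine and folate genes 4 rose and 4 fell, and of 20 genes of amino acid stress 4 rose and 6 fell. Mthfd2, of mitochondrial folate metabolism, fell 1.74-fold, and its neighbour in that pathway, Aldh1l2, rose 3.05-fold. Gpt2, an alanine aminotransferase, fell 3.72-fold, as did the amino acid transporters Slc7a5 (2.69-fold) and Slc7a1 (2.44-fold). Nupr1, a stress-induced nuclear protein, rose 6.67-fold from 8.31, 9.8 and 9.57 to 12.17, 11.93 and 11.79. Asns, asparagine synthetase and a standard target of the stress factor ATF4, had a log2 change of -0.12 and was not called.

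Of 26 antioxidant and glutathione genes 10 rose and 3 fell. Gstm2, a glutathione transferase, rose from 6.11, 6.17 and 6.34 to 10.07, 10.28 and 10.13 (15.5-fold, limma adjusted p = 3.11e-08), and Gsta1, another transferase, 4.05-fold. The differentiated arrays of Gstm2 all lay above the proliferative ones. The subunits of the enzyme that starts glutathione synthesis parted: Gclc, the catalytic one, rose 2.92-fold, and Gclm, the modifier, fell 2.39-fold. Nqo1, a quinone reductase, had a log2 change of -0.59 and was not called; it was called lower with only the 6 spinal cord arrays (-0.59) and with array quality weights (-0.55).

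Enzymes for retinoids, steroids and prostaglandins rose in 12 of 19 cases and fell in 4, with a median of 1.83 (1.0 with dim states at their floor). Aldh1a1 and Aldh1a2 make retinoic acid; the former rose at least 1.09-fold and the latter 4.28-fold, from 6.69, 6.68 and 7.28 to 9.07, 9.04 and 8.83. Aldh1a3, the third enzyme of this kind, fell 9.71-fold from 9.9, 9.18 and 9.27 to 5.77, 6.43 and 6.3. Cyp26b1, which breaks retinoic acid down, fell 9.68-fold, and Crabp2, which carries it to the nucleus, rose 3.68-fold. In each of these 5 genes the 3 arrays of a state lay apart from those of the other, as in 26.1% of all tested genes upward and 27.5% downward.

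Akr1c14, which reduces steroids and prostaglandins, rose at least 7.69-fold from 3.85, 3.72 and 3.57 to 9.27, 9.16 and 9.47. Ptgs2, the inducible cyclooxygenase, fell 3.64-fold, or 5.6-fold without proliferative replicate 1. Ptgis, the prostacyclin synthase, rose 10.7-fold, 22.1-fold without that array and 6.5-fold with its proliferative mean set to the dim level. Cyp1b1, a cytochrome P450, rose 5.65-fold. In the lysosome 12 of 30 genes were higher and 1 lower, or 10 and 2 without proliferative replicate 1, with 2 lower also under quantile normalization: Ctsk, cathepsin K, which cleaves collagen, rose 7.78-fold from 8.27, 9.25 and 8.72 to 11.77, 11.7 and 11.65, and Ctss, cathepsin S, a protease of microglia and macrophages, fell 3.73-fold.

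Many matrix genes of connective tissue rose. Collagens were higher in 14 of 26 cases and lower in 4 (median 1.11). Col8a2, a network collagen, rose from 7.06, 8.93 and 8.17 to 12.36, 12.17 and 12.39 (19.1-fold, limma adjusted p = 6.17e-06). Col12a1, which binds to fibril surfaces, rose 7.77-fold, Col3a1, of type III collagen, 2.71-fold, and Col4a1, of basement membranes, 2.2-fold. Of the 4 collagens that fell, Col9a3, a chain of type IX collagen, fell 1.84-fold, Col5a3 1.74-fold and Col27a1 2.07-fold.

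Of 17 enzymes and chaperones that process collagen 12 rose and 1 fell (median 1.44), or 12 and 2 without proliferative replicate 1, an array on which their mean was 9.56, against 10.59 and 10.2. Lox, lysyl oxidase, which crosslinks collagen and elastin, rose from 9.54, 10.4 and 10.14 to 13.93, 13.9 and 13.76 (14.3-fold, limma adjusted p = 1.29e-07). All differentiated arrays of Lox exceeded the proliferative ones. Loxl1, a related oxidase, rose 4.64-fold, Serpinh1, the collagen chaperone, 2.71-fold, and Pcolce, which enhances the trimming of procollagen, 6.72-fold (4.43-fold without proliferative replicate 1). Plod3, a lysyl hydroxylase, fell 1.51-fold, and Plod2 had a log2 change of 0.34 and was not called.

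Small leucine-rich proteoglycans, which bind collagen fibrils, rose in 6 of 9 cases and fell in 0 (8 and 0 at an unadjusted p under 0.05), with a median of 1.96. Besides Ogn, Omd, osteomodulin, rose at least 5.19-fold, Lum, lumican, 3.89-fold and Aspn, asporin, 15.4-fold (8.46-fold without proliferative replicate 1, 23.2-fold without replicate 2). Bgn, biglycan, had a log2 change of 1.96 and was not called. Its readings were 9.84, 11.89 and 11.26 before and 13.05, 12.94 and 12.88 after differentiation, which do not overlap but are widely spread in the proliferative state; it was called higher with only the 6 spinal cord arrays (log2 1.96) and with a pseudocount of 64 (1.92).

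Elastic fibre and fibronectin-type genes rose in 18 of 27 cases and fell in 4 (median 1.38). Efemp1, a fibulin, rose 16-fold from 8.78, 6.93 and 7.72 to 11.72, 11.73 and 11.98 (limma adjusted p = 3.9e-06). Fbln1, fibulin 1, rose 9.56-fold, Fbn1, fibrillin 1, 3.41-fold, and Mfap4, a microfibril protein, 12.8-fold (7.57-fold without proliferative replicate 1). Tnc, tenascin C, an extracellular protein of progenitors and wounds, fell 2.29-fold, and Thbs4, thrombospondin 4, 3.75-fold. In basement membranes 7 of 12 genes rose and 1 fell: Lamb2 and Lamb1, laminin chains, rose 4.08-fold and 3.35-fold, Nid2, nidogen 2, 2.86-fold, and Ntn1, the guidance protein netrin 1, fell 2.12-fold.

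The matrix of the brain moved the other way, with 9 of 16 genes lower and 1 higher (median -0.73). Ptprz1, a receptor phosphatase and proteoglycan of glial progenitors, fell 4.32-fold from 13.09, 13.4 and 13.27 to 11.07, 11.04 and 11.31. Cspg5, neuroglycan C, fell 5.73-fold, Ncan, neurocan, 2.61-fold, and Bcan, brevican, 1.73-fold. Chsy1, a chondroitin synthase, was the 1 gene that rose, 1.66-fold. Vcan, versican, had a log2 change of 0.05 and was not called.

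Among 29 matrix proteases and inhibitors 7 rose and 11 fell. Mmp14, a membrane-bound collagenase, rose 3.62-fold, and Serpinf1, the secreted protein PEDF, 10-fold from 8.96, 10.15 and 9.94 to 13.05, 13.14 and 12.83. Plau, the urokinase plasminogen activator, fell 6.61-fold from 9.42, 8.85 and 8.26 to 6.55, 6.07 and 5.73, Mmp15 fell 8.92-fold and Mmp3, stromelysin 1, 3.19-fold. Timp1, a protease inhibitor, had a log2 change of -0.02 and was not called.

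Adhesion molecules changed in both directions. Cdh1, the cadherin of epithelia, was at 1.13, 1.46 and 2.29 on the proliferative arrays, a dim state, and 10.38, 10.29 and 10.56 on the differentiated ones, a rise of at least 16.6-fold (limma adjusted p = 4.51e-05). Of the epithelial genes, F11r, a junction molecule, rose at least 4.11-fold and Krt15, a keratin, 8.03-fold (4.08-fold with its proliferative mean set to the dim level), but Krt18, another keratin, fell at least 3.96-fold. Cdh2, the cadherin of neural progenitors, fell 2.77-fold from 11.9, 11.88 and 11.55 to 10.25, 10.19 and 10.48, and Cdh11, a cadherin of mesenchyme, rose 4.07-fold. In all, 7 of 18 epithelial genes rose and 3 fell, and 6 of 21 cadherins and protocadherins rose and 10 fell.

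Among 14 integrins 4 rose and 5 fell, and among 31 genes of neural adhesion and guidance 13 rose and 11 fell. Itga8, the integrin subunit that pairs with beta 1 to bind nephronectin, fell 10.7-fold from 10.53, 11.55 and 10.88 to 7.77, 7.48 and 7.45, and Itgbl1, a secreted integrin-like protein, rose at least 16.9-fold from 3.47, 0.86 and 4.61 to 10.43, 10.4 and 10.47. Itgb4, the beta subunit of the laminin receptor of epithelia, rose 7.08-fold, and Itga6, its partner, fell 2.25-fold. Among the genes of neural adhesion and guidance, Nrp1 and Nrp2, neuropilins, rose 4.83-fold and 2.78-fold. Slit2, a repulsive cue, rose 4.74-fold, and Epha7, an ephrin receptor, 4.79-fold. Cntn1, contactin 1, fell 3.4-fold and Unc5b, a netrin receptor, 2.8-fold.

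Contractile genes were higher in 12 of 22 cases and lower in 0 (13 higher and 2 lower at an unadjusted p under 0.05); without differentiated replicate 2 the counts were 11 and 1, and without replicate 3, 9 and 1, as with only the 6 spinal cord arrays. Csrp2, a smooth muscle LIM protein, rose 8.06-fold from 8.81, 8.55 and 8.82 to 11.8, 11.78 and 11.63, and Mylk, the myosin light chain kinase, 6.24-fold. Acta2, smooth muscle actin, had a log2 change of -0.03 and Myh11, smooth muscle myosin, of -0.18, and neither was called. Tagln, transgelin of smooth muscle, was called higher. Its rise was 9.96-fold without proliferative replicate 2 and 9.20-fold without proliferative replicate 3. The call was lost without proliferative replicate 1 (1.97-fold) or without differentiated replicate 1, 2 or 3 (5.24-fold, 5.65-fold and 6.12-fold). Of 7 smooth muscle and pericyte markers 2 were higher and 1 lower, or 1 and 1 without proliferative replicate 1 or any differentiated array, and 1 and 2 with only the 6 spinal cord arrays.

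Transporters of solutes changed in both directions, with 4 of 25 amino acid and transmitter carriers higher and 8 lower. Slc6a13, a carrier for GABA and taurine in the meninges, was dim in proliferative cultures at 3.01, 2.61 and 2.54 and rose to 9.53, 9.37 and 9.54, at least 8.69-fold (limma adjusted p = 4.36e-05). Slc1a3, the glial glutamate transporter, was called higher by 1.61-fold on its brightest probe set, while another of its probe sets was called lower. Slc18a2, which loads monoamines into vesicles, fell 5.19-fold, and Slc6a17, another carrier of synaptic vesicles, 6.31-fold. Slc38a1, a glutamine carrier, fell 2.73-fold.

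Of 13 carriers of sugars, monocarboxylates and nucleosides 5 rose and 4 fell, and of 23 carriers of organic ions and vitamins 9 rose and 4 fell. Slc2a3, the neuronal glucose transporter, fell 3.13-fold from 8.39, 8.94 and 8.57 to 7.04, 6.98 and 6.95, whereas Slc2a1, the glucose transporter of barriers and glia, had a log2 change of -0.28 and was not called with all arrays (called lower without proliferative replicate 3, 1.3-fold). Slc5a3, which imports inositol, fell 3.17-fold. Slc16a7 and Slc16a6, monocarboxylate carriers, rose 3.88-fold and 4.12-fold. Slc47a1, an exporter of organic cations, fell 13.3-fold from 9.56, 11.03 and 10.35 to 6.97, 6.42 and 6.34, and Abcb1a, the drug efflux pump P-glycoprotein, at least 2.98-fold.

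Metal carriers were higher in 8 of 18 cases and lower in 1, or 5 and 1 without differentiated replicate 1 or replicate 2. Slc11a2, the iron importer DMT1, rose 7.37-fold from 9.15, 9.04 and 8.4 to 11.82, 11.73 and 11.69, and Cp, the iron oxidase ceruloplasmin, 7.78-fold (4.32-fold without proliferative replicate 1). Slc41a1, a magnesium carrier, rose 2.27-fold, and Steap3, an iron reductase, fell 2.15-fold. The transferrin receptor gene Tfrc had a log2 change of 0.12 and was not called with all arrays; without proliferative replicate 1 it was called higher, with a 1.71-fold change.

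Voltage-gated channels fell in 15 of 30 cases and rose in 3 (5 with only the 6 spinal cord arrays), with a median of -1.14 (-0.47 with dim states at their floor). Scn3a, a sodium channel of developing neurons, fell from 7.97, 8.79 and 8.91 to 5.23, 4.01 and 2.63 (at least 4.92-fold, limma adjusted p = 4.41e-05). Kcnd3, a potassium channel subunit, fell 8.34-fold, and Scn2b, a sodium channel auxiliary subunit, at least 3.81-fold. Among the channels that rose were Cacna1c, an L-type calcium channel, at 2.26-fold, and Kcnk2, a leak potassium channel, at 2.84-fold. Of the 30 genes 10 were dim in differentiated cultures and 1 was dim in proliferative ones.

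Of 27 chloride, water, gap junction and pump genes 10 rose, Gjb2 among them, and 6 fell. Aqp1, the water channel of the choroid plexus and mesothelia, rose 7.55-fold from 7.55, 6.9 and 6.88 to 10.12, 10.04 and 9.91, and Gja1, connexin 43 of astrocytes and meninges, 4.36-fold. The sodium pump subunits Atp1b1 and Atp1b2, the latter the glial form, fell 3.43-fold and 3.92-fold. Slc4a10, a bicarbonate carrier of neurons, fell at least 8.69-fold from 8.92, 9.59 and 9.63 to a dim state.

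Receptors for fast transmission were lower in 15 of 20 cases and higher in 0 (0 and 15 at an unadjusted p under 0.05), with a median of -1.72 (-0.78 with dim states at their floor). The AMPA receptor subunits fell together: Gria3 from 11.41, 11.94 and 11.75 to 8.95, 9.0 and 9.13 (6.39-fold, limma adjusted p = 1.77e-07), Gria4 6.31-fold and Gria2 4.11-fold. The count of 15 was the same when arrays were centred on their medians and under quantile normalization, and 14 without proliferative replicate 1.

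Proteins of synaptic vesicles and secretory granules fell in 18 of 27 cases, and 1 rose. Snap25, of the vesicle fusion machinery, fell 3.14-fold from 8.76, 7.56 and 7.9 to 6.48, 6.19 and 6.6. Chgb, a granule protein, was called lower with both state means below the dim level (log2 change -2.73, with no fold given), a call lost with only the 6 spinal cord arrays, and Vamp1, another fusion protein, was the gene that rose, 2.86-fold. Syt1, the calcium sensor of vesicle release, had a log2 change of -0.55 and was not called.

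Genes induced by ERK signalling were lower in 21 of 31 cases and higher in 1 (median -0.93); 0 were higher without replicate 3 of either state, and 2 without proliferative replicate 2. Spry2, an inhibitor of receptor tyrosine kinase signalling, fell from 12.35, 12.13 and 12.26 to 9.68, 9.3 and 9.64 (6.53-fold, limma adjusted p = 5.04e-09). Spry4, of the same family, fell 4.58-fold, and the phosphatases Dusp5 and Dusp6, which dephosphorylate ERK, 4.71-fold and 3.08-fold. Etv4, a target factor of fibroblast growth factor signalling, fell 2.93-fold, Egr2 5.12-fold and Fos, an immediate early gene, 3.96-fold. No array of Spry2 overlapped between the states.

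Ligands fell more often than they rose, in 11 of 31 cases against 5, or 3 without proliferative replicate 1, differentiated replicate 1 or differentiated replicate 2, and 8 with only the 6 spinal cord arrays. Besides Areg, Ereg, epiregulin, fell 4.54-fold, Hbegf, another ligand of the epidermal growth factor receptor, 5.53-fold (3.53-fold without proliferative replicate 1), and Vegfa, the vascular growth factor, 2.04-fold. Pgf, placental growth factor, rose 2.94-fold, and Pdgfc, a platelet-derived growth factor, 2.18-fold. Among receptor tyrosine kinases 8 of 29 rose and 10 fell: Egfr, the epidermal growth factor receptor, rose 2.48-fold, Pdgfrb, of fibroblasts and pericytes, 3.21-fold, and Ddr2, a collagen receptor, 7.84-fold from 8.21, 9.49 and 9.01 to 11.89, 11.83 and 11.91, while Ntrk2, the receptor for brain-derived neurotrophic factor, fell 2.79-fold and Fgfr3, a fibroblast growth factor receptor, 1.87-fold.

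Of 23 genes of the TGF-beta and activin pathway 6 rose (26.1%) and 4 fell (17.4%), near the shares of all tested genes. Without differentiated replicate 1 these counts were 4 and 2. Of 21 BMP pathway genes 8 rose (38.1%) and 5 fell (23.8%). Of these, 3 fell with median centring or without differentiated replicate 2, and 2 without proliferative replicate 3. The ligand Tgfb2 rose 4.23-fold from 8.5, 8.41 and 8.5 to 10.64, 10.6 and 10.41, and the activin subunit Inhba fell 4.82-fold from 10.43, 12.54 and 11.72 to 9.28, 9.26 and 9.34. Both ligands' arrays were separate between states. Bmp2 fell 8.52-fold, whereas Bmp4 and Bmp6 rose 2.32-fold and 4.56-fold. The BMP targets Id3 and Id4, inhibitors of helix-loop-helix factors, went in opposite directions, Id3 up 2.41-fold and Id4 down 2.19-fold. Chrd, the BMP antagonist chordin, rose 9.23-fold, or 18.8-fold without proliferative replicate 2, 3.74-fold without replicate 3 and 2.36-fold with its proliferative mean set to the dim level.

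Wnt pathway genes rose in 14 of 31 cases and fell in 6. Wnt16, a ligand, rose at least 6.42-fold from 1.65, 2.51 and 5.0 to 8.95, 9.19 and 8.98, Sfrp2, a secreted modulator, 6.81-fold, Fzd2, a receptor, 6.85-fold, and Axin2, a standard target gene, 3.31-fold. Lef1, a nuclear factor of the pathway, fell 5.37-fold from 8.52, 9.32 and 9.29 to 6.0, 7.09 and 6.77, and Wnt7a, a ligand, 3.33-fold. In the Notch pathway 6 of 23 genes rose and 10 fell: Dll1, a ligand, fell 10.6-fold (20.1-fold without differentiated replicate 1, 4.39-fold without replicate 3, 3.23-fold with its differentiated mean set to the dim level), Hes1, a target, 2.21-fold, and Notch1 2.52-fold. Hedgehog and Hippo genes rose in 11 of 19 cases and fell in 2 (0 to 1 with each array left out other than differentiated replicate 2, 0 with median centring and 1 with only the 6 spinal cord arrays), with Gli2, a factor of the hedgehog pathway, up 4.9-fold, Smo, its signal transducer, 3.12-fold, and Wwtr1, the Hippo coactivator TAZ, 1.87-fold.

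Of 24 genes for hormones and insulin-like growth factor binding 6 rose and 7 fell: Igfbp6 rose 4.53-fold from 8.31, 7.3 and 7.41 to 9.8, 10.01 and 9.75 and Igfbp2 3.36-fold, and Igfbp3 fell 1.95-fold. Stc1, the hormone stanniocalcin, fell 4.3-fold, and Ramp1, a co-receptor for calcitonin gene-related peptide, 7.46-fold. Of 32 genes for G protein coupled receptors and their regulators 11 rose and 11 fell, or 7 and 8 without proliferative replicate 1 or differentiated replicate 1 or 2. P2ry14, a receptor for UDP-sugars, rose at least 4.1-fold, and S1pr1, a receptor for sphingosine phosphate, 3.24-fold, while Cnr1, the cannabinoid receptor, fell 5.42-fold and Adora1, an adenosine receptor, 4.76-fold.

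Of 27 genes of the interleukin 6 family, its JAK-STAT relay and the acute phase 14 rose and 4 fell. The cytokine Il11 fell at least 13.1-fold from 8.91, 10.85 and 10.15 to 3.84, 2.33 and 2.87. Il6 itself was at 6.43, 9.9 and 9.25 before and 7.27, 7.19 and 7.29 after differentiation and was not called with all arrays; without proliferative replicate 1 it was called lower, 5.01-fold, and with array quality weights too (log2 -1.94). Among acute phase proteins, Hp rose, and so did Lbp, which binds bacterial lipopolysaccharide, 15.6-fold (9.02-fold without proliferative replicate 1), Saa3, a serum amyloid A, 9.16-fold, and Lcn2, an iron-trapping lipocalin, 3.64-fold. Serpina3n, an acute phase protease inhibitor, read 6.75, 10.59 and 10.13 before and 7.34, 7.4 and 7.72 after differentiation, with a log2 change of -1.67, and was not called; it was called lower without proliferative replicate 1 (7.33-fold), with a pseudocount of 64 (log2 -1.50) and with array quality weights (-2.45). Il33, an alarmin, fell 5.75-fold, and its receptor Il1rl1 6.88-fold.

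Chemokine, complement and NF-kB genes were higher in 22 of 33 cases and lower in 2 (median 1.2); without proliferative replicate 1 the counts were 21 and 3, and without replicate 2, 24 and 0. Without differentiated replicates 1, 2 and 3 in turn 21, 21 and 20 were higher and 1, 1 and 0 lower, and 0 were lower with median centring and 1 under quantile normalization or with only the 6 spinal cord arrays. C3, the central complement protein, rose 7.42-fold (4.92-fold without proliferative replicate 1), and Serping1, the inhibitor of the first complement component, 11.4-fold (5.89-fold without it). Cxcl1, a neutrophil chemokine, rose 2.88-fold, and Vcam1, an adhesion molecule for leukocytes, 2.55-fold from 10.92, 11.11 and 10.77 to 12.23, 12.19 and 12.42. Cxcl14 had a log2 change of -0.18 and was not called.

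Genes induced by interferon or used to present antigens were higher in 27 of 33 cases and lower in 0 (29 and 0 at an unadjusted p under 0.05), with a median of 1.39; the count was 25 without proliferative replicate 1, and 29 and 28 under median centring and quantile normalization. Isg15, a ubiquitin-like modifier, rose from 8.5, 10.13 and 10.17 to 12.64, 12.74 and 12.55 (8.25-fold, limma adjusted p = 1.9e-05). Gbp4, a guanylate-binding protein, read 6.27, 7.49 and 7.31 before and 9.78, 9.79 and 9.88 after differentiation and rose 6.93-fold (limma adjusted p = 7.56e-06). Irf7, the factor that amplifies the interferon response, rose from 8.67, 10.22 and 10.5 to 11.76, 11.79 and 11.81 (3.96-fold), and Psmb8, a subunit of the immunoproteasome, 5.03-fold. In these 4 genes every differentiated array lay above every proliferative one, and proliferative replicate 1 was the lowest of the proliferative arrays for Isg15, Gbp4 and Irf7.

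Interferon-induced genes are known for a promoter element, the ISRE, which is searched for here as GAAANNGAAA on both strands. It was found within the 250 bases before the start in 18 of 27 tested members with a promoter in the table (66.7%), against 3.3% of all 27457 promoters. Among the members that rose it was found in 15 of 22 (68.2%), and among those not called in 3 of 5 (60%). Among called members whose promoter holds a match, the 4 with the largest rises (Gbp4, Ifi44l, Rsad2 and Irf7, chosen after their values were seen) are shown because they let the shared element be seen beside the values; sequences are those of RefSeq on assembly GRCr8, 5′ to 3′ on the gene's strand, with the element, read on either strand, in capitals.
Gbp4: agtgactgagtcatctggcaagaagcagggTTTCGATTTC
Ifi44l: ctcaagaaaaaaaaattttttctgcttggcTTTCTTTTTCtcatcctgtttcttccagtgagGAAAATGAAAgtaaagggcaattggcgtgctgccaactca
Rsad2: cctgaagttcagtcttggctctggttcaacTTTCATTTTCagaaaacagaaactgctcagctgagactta
Irf7: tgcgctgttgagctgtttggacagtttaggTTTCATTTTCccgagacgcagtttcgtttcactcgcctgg
The stretches lie at chr2:233978446-233978485 (plus strand), chr2:243328602-243328703 (plus strand), chr6:48788228-48788297 (minus strand) and chr1:205800053-205800122 (minus strand), in that order. The first match starts 10 bases before the start of Gbp4, 91 before that of Ifi44l, 147 before that of Rsad2 and 69 before that of Irf7, and Ifi44l holds 2 matches. A match is a description of these letters and not a measured binding site.

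Other motifs were set beside their lists in the same way. All were searched on both strands of the same window. CCAAT, the CCAAT box, was in 72.2% of the promoters of DNA replication and mitosis genes, against 34.3% of all promoters, with a match in 6 of 8 members that fell and 20 of 28 not called. CACGTG, an E-box read by lysosomal regulators, was in 25.0% of those of lysosome genes, against 5.8%, and in 18.2% of those of the members that rose and 33.3% of those not called. The antioxidant response element core TGACNNNGC was in 22.7% of the promoters of antioxidant genes, against 10.2%, and in 12.5% of those of the members that rose and 27.3% of those not called. The AP-1 site TGANTCA was in 0 of 21 promoters of ERK-induced genes, against 6.4%.

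Transcription factors of the neural lineage fell: of 24 Sox, Pax and patterning factors 16 were lower and 4 higher (median -1.21). Olig1, of the oligodendrocyte lineage, fell from 13.32, 13.58 and 13.64 to 11.3, 11.27 and 11.18 (4.78-fold, limma adjusted p = 1.69e-08), Olig2 at least 2.41-fold, Nkx2-2 5.34-fold and Sox10 2.39-fold. Irx1, a patterning factor, fell 9.08-fold, and Pax6, of dorsal and intermediate progenitors, 1.83-fold. The zinc finger factors Zic1 and Zic2, found in dorsal cord and in meninges, rose 5.43-fold and 5.59-fold. Zic1 read 6.94, 6.69 and 6.39 on the proliferative arrays and 9.19, 9.17 and 8.98 on the differentiated ones.

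Of 19 proneural and neuronal factors 9 fell and 4 rose. Myt1, a zinc finger factor of neurons and oligodendrocyte precursors, fell 9.94-fold from 10.5, 10.7 and 10.96 to 7.4, 7.35 and 7.48, and Bcl11b, a factor of neuronal subtypes, at least 6.44-fold. Zfhx4, a large homeobox factor, rose 5.38-fold. RNA-binding and chromatin factors of progenitors were lower in 14 of 25 cases and higher in 3: Hmga2, a chromatin protein of young stem cells, fell at least 2.33-fold from 8.05, 7.16 and 7.23 to 1.64, 4.37 and 3.04, Ezh2, a histone methyltransferase, 2.28-fold, and Elavl4, a neuronal RNA-binding protein, 12.3-fold.

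Mesenchymal and mesodermal factors went up in 8 of 17 cases and down in 2 (median 1.45). Foxp2, a forkhead factor, rose from 5.16, 4.29 and 4.25 to 10.16, 9.98 and 10.21 (at least 13.5-fold, limma adjusted p = 4.65e-06). Tbx18, of pericytes and meninges, rose at least 2.17-fold, and Eya1, a transcriptional cofactor, 8.19-fold. Scx, a factor of tendon cells, fell at least 2.92-fold (at least 4.48-fold without proliferative replicate 1), while the tendon protein gene Tnmd rose. Twist1, a factor of mesenchyme, was at 7.78, 8.73 and 8.05 before and 10.17, 10.18 and 10.12 after differentiation and was not called (limma adjusted p = 0.0724), although its arrays did not overlap; it was called higher with only the 6 spinal cord arrays (log2 1.97) and with a pseudocount of 64 (1.75).

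Among nuclear receptors and C/EBP, KLF and PPAR factors 9 of 34 rose (26.5%) and 8 fell (23.5%), near the shares of all tested genes. The counts were 10 and 5 with median centring, with 13 lower without proliferative replicate 1. Without differentiated replicate 3 or proliferative replicate 2 or 3, 5 were lower. Nr3c2, the mineralocorticoid receptor, rose 13.1-fold from 6.34, 5.61 and 6.36 to 9.92, 9.94 and 9.57, and Klf5, a zinc finger factor, 9.06-fold. Rorb, an orphan receptor, fell 3.1-fold, and Per1, a clock gene, 2.82-fold. Of the Hox, Meis and Pbx genes 4 of 23 rose and 2 fell, or 1 and 1 without differentiated replicate 2, 2 and 1 without differentiated replicate 1 or proliferative replicate 2 or 3, 2 and 2 without differentiated replicate 3, and 7 and 5 with only the 6 spinal cord arrays. Meis2 fell 2.67-fold.

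DNA replication and mitosis genes were mostly not called: 9 of 40 were lower and 0 higher (0 and 13 at an unadjusted p under 0.05), with a median of -0.41. The lower share, 22.5%, was near the 22.6% of all tested genes. The count depended on the proliferative arrays: 17 were lower without replicate 2, and 8 lower with 2 higher without replicate 1. Without replicate 1 the median was -0.10. Top2a, a topoisomerase of dividing cells, fell 1.94-fold from 11.74, 10.86 and 10.93 to 10.28, 10.14 and 10.24 (limma adjusted p = 0.00207). Pbk, a mitotic kinase, fell 2.33-fold, and Cdt1, which licenses replication origins, 2.11-fold. Cdk1, the kinase that starts mitosis, read 11.89, 11.05 and 11.2 before and 10.92, 10.99 and 11.03 after differentiation, with its highest value on proliferative replicate 1, and was not called with all arrays (called lower without proliferative replicate 2, 1.48-fold). Of 28 D cyclins, kinase inhibitors and p53 targets 4 rose and 6 fell: Ccnd1, cyclin D1, fell 2.72-fold, and Cdkn1c, an inhibitor of cell cycle kinases, rose 1.99-fold.

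Cytosolic ribosomal proteins were higher in 19 of 26 cases and lower in 0 (20 and 0 at an unadjusted p under 0.05) with a median of 0.29, but 13 were higher when arrays were centred on their medians and 2 under quantile normalization (median 0.06). The count was 8 without differentiated replicate 1 and 11 without replicate 2. Genes of endoplasmic reticulum chaperones and the secretory pathway were higher in 16 of 33 cases and lower in 5, or 18 and 1 with median centring, 16 and 8 with quantile normalization, 14 and 2 without differentiated replicate 3 and 3 lower without proliferative replicate 2 or with only the 6 spinal cord arrays. Creb3l1, a membrane-bound factor that drives collagen secretion, rose 4.11-fold from 7.31, 7.91 and 7.34 to 9.46, 9.82 and 9.4, and Kdelr3, a retrieval receptor of that pathway, 3.81-fold. Hspa5, the chaperone BiP, had a log2 change of -0.12 and was not called, or called lower (-0.26) under quantile normalization.

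The difference between the responses of spinal cord and brain cultures was tested as an interaction in the same fit. The responses share no control arrays, since each tissue has its own proliferative cultures. In 2654 genes (23.7%) the spinal cord response was the more positive and in 2382 (21.2%) the more negative. The balance depended on scaling, with 3544 and 1752 genes under median centring and 2773 and 2295 under quantile normalization. In brain 24.1% of the tested genes rose and 28.5% fell. Opposite calls in the tissues were made in 1107 genes (9.87%).

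Responses of oligodendrocyte lineage markers differed between the tissues. The spinal cord response was the lower in 9 of 10 precursor markers, and 9 of the 10 rose in brain; it was also the lower in 9 of 11 mature markers, and 9 of the 11 rose in brain (median log2 change 4.21). For Cspg4 the log2 change was -3.44 in spinal cord and 1.94 in brain, a difference of -5.38 (limma adjusted p = 3.66e-08). For Gfap it was -1.40 and 2.48 (adjusted p of the difference 1.5e-05 in limma). Transmitter receptors were also lower in their spinal cord response in 15 of 20 cases and higher in 0, and 12 of the 20 rose in brain.

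For matrix and meninges genes the spinal cord response was more often the higher. It was higher in 11 of 14 fibroblast and meninges markers, 9 of 17 collagen processing genes and 12 of 27 elastic fibre genes. In the same order it was lower in 0, 1 and 3. These lists did not fall as a whole in brain, where 3, 6 and 7 members rose and 4, 4 and 2 fell. Of their members 5, 1 and 5 were dim in both brain states. Such members could be tested only through spinal cord arrays, and their brain changes are between dim readings. They thus say little about a difference between the tissues. For Col1a1 the log2 change was 3.37 in spinal cord and 0.75 in brain, a difference of 2.62 (limma adjusted p = 0.000498). Agtr1a changed by 5.31 in spinal cord and by -1.47 in brain, where it was dim in both states.

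Oxidative phosphorylation genes responded more positively in spinal cord in 27 of 44 cases (32 with median centring, 23 under quantile normalization), and 12 of the 44 fell in brain, a share near that of all genes there. Ribosomal proteins did so in 22 of 26 cases (24 and 13 under the other scalings), and 16 fell in brain. Fatty acid oxidation rose in both tissues, in 16 and 17 of 21 genes, with 3 responses higher and 7 lower in spinal cord. The balance of these responses depended on scaling, with 4 and 2 under median centring and 4 and 6 under quantile normalization. Interferon-induced genes rose in 27 of 33 cases in both, with medians of 1.39 in spinal cord and 1.84 in brain. Of their responses 7 were higher and 9 lower in spinal cord, or 6 and 19 without proliferative replicate 1. They were 8 and 7 under median centring and 8 and 9 under quantile normalization. ERK-induced genes fell in 21 and 23 of 31 cases, and 10 responses were higher and 6 lower in spinal cord.

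**Figure D5:**
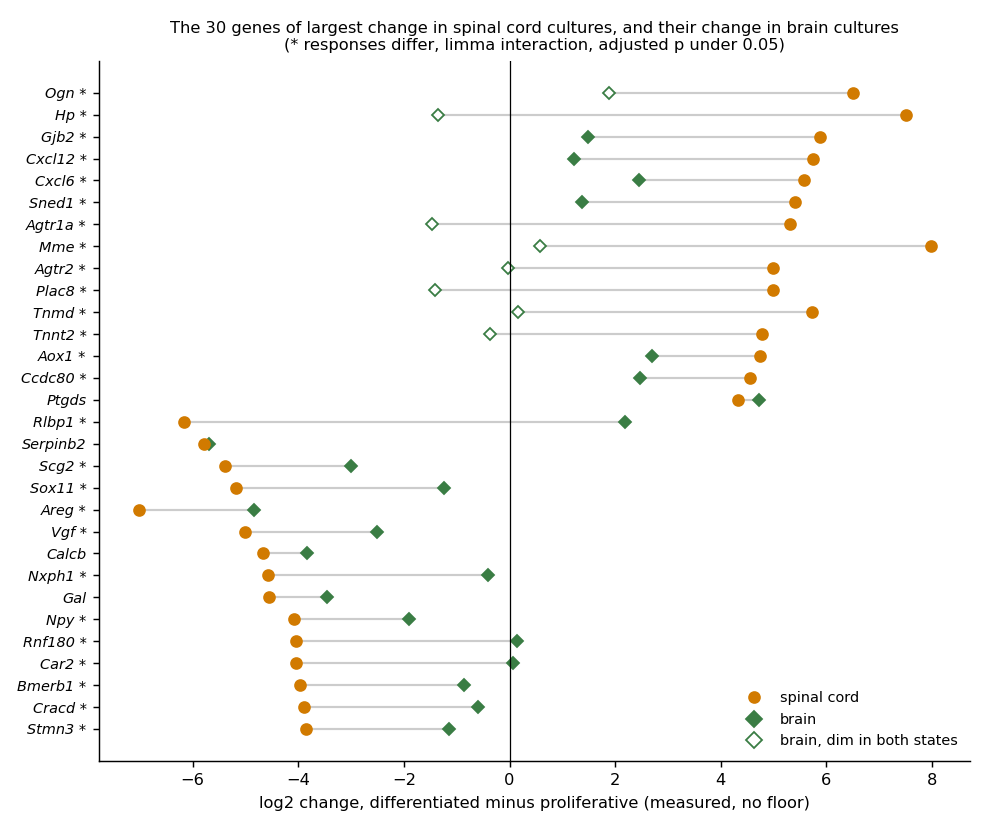
Log2 change (differentiated minus proliferative, horizontal axis) in spinal cord (circles) and brain cultures (diamonds) for 30 genes. These are the called genes with the largest spinal cord changes when dim states are set to their floor. The changes plotted use no floor, and on that measure genes not shown, such as Cdh1, changed more than some shown. Open diamonds mark genes dim in both brain states, and an asterisk marks a called difference between the responses. Rlbp1 falls in spinal cord while its brain change is positive, and Ptgds, Serpinb2, Calcb and Gal carry no asterisk.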

How the data were processed

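RNA was measured on Affymetrix Rat230_2 arrays, 12 in all, with the state taken from the sample titles and the tissue from the labels. The deposited values are log2 signals of 31099 probe sets, for which the submitters' processing notes name MAS5 and affy, with no version or role; on every array the linear mean with the outer 2% trimmed is about 500. The number of arrays limits the precision.

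Of 31042 probe sets without the 57 controls, 20834 had at least 3 of 12 arrays above the array's own 40th percentile and were tested. They were fitted with limma 3.58.1 in R 4.3.3 (lmFit, eBayes with trend, Benjamini-Hochberg over all tested probe sets, 4 groups, 8 residual degrees of freedom), so the spread is shared with the brain arrays. The contrast was differentiated minus proliferative spinal cord, and the interaction set this against the same contrast in brain. The script was tested on simulated data. Tables and plots used Python 3.11.15, pandas 2.3.3 and matplotlib 3.10.9.

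In GEO's platform annotation 20826 probe sets had 1 symbol, 436 had several and 9780 had none; 20758 matched a current RefSeq symbol on GRCr8; unnamed probe sets are not named here. Of 14217 genes 11218 were tested. Of 3316 genes with several tested probe sets 32 had opposite calls. Probe sets of near-identical paralogs, such as those of glutathione transferases, can share signal.

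The genes named, 532 in all, are of 3 kinds, and not all are printed. They are the 15 largest called rises and falls, ranked with dim states at their floor, and key members of the lists whatever their values. Up to 3 called members of each list in each direction, ranked in the same way, were added. The members and lists were chosen with earlier results of these data known. Alternatives were other filters, scalings, a pseudocount of 64, the 6 spinal cord arrays alone, other variance models, a block on replicate number, a size threshold, the median over a gene's probe sets and leaving out each array; a floor for every mean below the dim level was added after seeing the data. Replicate numbers did not pair the arrays.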

Additional observations from a re-analysis of the deposited data

Results flagged for a closer look

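The spinal cord and brain responses to differentiation differed, by the interaction test in the 12-array limma fit, in many probe sets: 3916 with the more positive response in spinal cord (18.8% of those tested) and 4518 with the more negative one (21.7%). With arrays centred on their medians these counts were 5349 and 3373. The test was read for the 30 called genes with the largest spinal cord changes, ranked with dim states at their floor, and 26 of them were called. Choosing genes by that change favours a larger change in spinal cord than in brain. These values are thus a description and no evidence of a difference between the tissues at large. For those that rose, the spinal cord change exceeded the brain change on the log2 scale by 4.62 for Ogn, 8.86 for Hp, 4.39 for Gjb2, 4.53 for Cxcl12, 3.13 for Cxcl6, 4.04 for Sned1, 6.79 for Agtr1a, 7.40 for Mme, 5.03 for Agtr2, 6.42 for Plac8, 5.56 for Tnmd, 5.16 for Tnnt2, 2.04 for Aox1 and 2.08 for Ccdc80. Of these, Ogn, Hp, Agtr1a, Mme, Agtr2, Plac8, Tnmd and Tnnt2 were dim in both brain states, so their brain changes are between readings below the dim level. The differences given here, for rises and falls, use measured readings with no floor. Hp, Mme and Tnmd were dim in proliferative spinal cord cultures too, and with the floor their spinal cord rises were at least 6.0, 5.27 and 4.84.

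For the genes that fell, the spinal cord response minus the brain response was -8.34 for Rlbp1, -2.38 for Scg2, -3.92 for Sox11, -2.19 for Areg, -2.50 for Vgf, -4.16 for Nxph1, -2.17 for Npy, -4.19 for Rnf180, -4.11 for Car2, -3.10 for Bmerb1, -3.31 for Cracd and -2.72 for Stmn3. The difference was not called for Ptgds (-0.40), Serpinb2 (-0.09), Calcb (-0.83) and Gal (-1.09).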

How the results depend on the processing

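With 3 arrays a state, and p-values that rest on a spread shared with brain cultures, genes with tight spinal cord arrays could go uncalled. All 4 counts of called probe sets stayed within 1.5 times their value under the alternatives run, except for the size threshold: called changes of at least 2-fold were 1606 higher and 2073 lower, and 1885 responses higher in spinal cord. Within that range the balance of the responses turned with scaling. With arrays centred on their medians 5349 were higher and 3373 lower in spinal cord, and under quantile normalization 4273 and 4185. Leaving out each spinal cord array in turn gave 3098 to 3943 higher, 3808 to 4472 lower, 3478 to 4361 responses higher and 4105 to 4818 lower. With the replicate number as a block the counts were 3525, 4262, 3642 and 4277; same-numbered arrays did not deviate together (correlations of -0.04, -0.01 and -0.02), so the block is no pairing; among the genes printed here it gave calls for Bgn, Nqo1, Serpina3n and Twist1 and lost that of Uqcrc2. Rises were 45.3% of calls, 52.3% with arrays centred on their medians, and 43.7% to 47.4% otherwise. The 6-array fit could not be run for the interaction. Of the 532 genes named by the rule, 1 to 45 lost their call under the alternatives run for all of them, and 0 under the stricter filter, which left 465 tested. The median over probe sets, run for the 164 genes with several, moved 42 values and reversed that of Uqcrc2, to -0.25, and the cause was not tested.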
